A study of Mus musculus with 6 samples.

Results

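Alkal2 (formerly Fam150b), the receptors Alk and Ltk, and the genes next to Alkal2 on mouse chromosome 12 (Acp1, Sh3yl1 and Tmem18) were examined in cultured mouse adipocytes in which Tcf7l2, a Wnt pathway transcription factor gene, had been targeted. These 6 genes were taken by symbol from a table of 49671 genes. Alkal2 was chosen by its measured counts, namely its difference between knockout and control cells in these same libraries, so its values are a description without a test. The other 5 belong to the set as its receptors or by position.

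ALKAL2 is a small secreted protein that, with its relative ALKAL1, activates the receptor tyrosine kinases ALK and LTK. An activated receptor recruits adaptor proteins and signals through the RAS-ERK, PI3K-AKT and JAK-STAT cascades. ALK is best known in developing neurons and as an oncogene in neuroblastoma and lymphoma, and mice without Alk are lean. Of the neighbours, ACP1 is the low molecular weight protein tyrosine phosphatase, whose substrates include the insulin receptor, SH3YL1 is a phosphoinositide-binding SH3 domain protein, and TMEM18 is a nuclear membrane protein whose human locus is associated with obesity.

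Total RNA was sequenced from 3 control libraries (C57BL/6, Tcf7l2 floxed, ethanol, genotype labelled wild type) and 3 knockout libraries (C57BL/6, Tcf7l2 floxed, 4-hydroxytamoxifen, genotype labelled Tcf7l2 knockout). All 6 came from inguinal fat preadipocytes of mice aged 3 months, sorted for CD34, Sca1 and CD29, immortalised with SV40 large T antigen and infected with a retrovirus carrying CreERT2, a Cre recombinase that 4-hydroxytamoxifen switches on. Ethanol or the drug was given for 24 hours, 2 days before dexamethasone, isobutylmethylxanthine and insulin, and the cells were differentiated to day 8. A further agent at 5 nM is named in the labels by a code whose number goes up by 1 per library, and whether it differed cannot be told from the labels. The promoter that drives CreERT2 is not given in the sources used here, and the drug and the deletion cannot be told apart because every knockout library had both. Whether the libraries of a group were separate cultures is not stated, so every p-value reflects only how much these 6 libraries vary, possibly for technical reasons.

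Library totals ran from 26621293 to 33484764 counts. The adipocyte markers Adipoq, Plin1, Cidec, Fabp4 and Lpl averaged over 10 CPM (counts scaled to library size with TMM factors). So did the preadipocyte markers Pdgfra, Cd34, Ly6a and Itgb1. Other markers listed for these cell types averaged less in control and knockout libraries: Lep 0.598 and 2.33, Dpp4 1.12 and 0.798, Pi16 6.13 and 6.16 CPM. Cd34, Ly6a (Sca1) and Itgb1 (CD29) encode proteins the cells were sorted for, so their presence is no separate check of cell type. Mean Tcf7l2 was 7.65 ± 1.49 CPM in the control group and 6.12 ± 0.638 CPM in the knockout group (SD, n = 3), a log2 difference of -0.32 (SE 0.14) that edgeR did not call (adjusted p = 0.125). Without control replicate 2 it was called (-0.46; adjusted p = 0.0322). The floxed part of the gene is not named, so whole-gene counts do not check the deletion. Control replicate 3 and knockout replicate 2 lay apart from the other libraries on the second principal component (scores -15.1 and -14.1, the others above 0).

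The sequence upstream of Alkal2 is shown because the gene's transcript went from barely detected to clearly detected between the groups. It covers the 250 bases before the RefSeq start site (GRCm38.p6, chr12:30884074-30884323, plus strand), with capitals marking a GC box (GGGCGG) and a cAMP response element-like heptamer (TGACGTC). The heptamer was added to the search after the sequence was seen.
Alkal2 upstream: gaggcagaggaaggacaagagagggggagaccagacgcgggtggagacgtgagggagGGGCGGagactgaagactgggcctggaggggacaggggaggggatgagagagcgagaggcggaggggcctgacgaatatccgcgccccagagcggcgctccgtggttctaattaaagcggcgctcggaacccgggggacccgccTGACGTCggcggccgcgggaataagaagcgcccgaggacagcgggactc
The window is 68% G or C, more than in 87.8% of all 32851 promoter windows of this length, and holds 25 CpG dinucleotides. The GC box begins 193 bases before the start site and the heptamer 49 bases before it, both on the gene's strand. A GC box was present on either strand in 32.7% of all windows and the heptamer in 2.78%. TCF/LEF motifs were searched on both strands. The letters CTTTGAT were in 3.21% of all windows, the letters CTTTGTT in 5.03% and the letters CTTTGAA in 4.46%. Any of these was in 12% of all windows and in 0 of the 6 windows of Alkal2, Alk, Ltk, Acp1, Sh3yl1 and Tmem18. The E-box CACGTG (6.02% of all windows) and the TATA box TATAAA (12.4%) were likewise in 0 of these 6, which says only that these letters are not in these stretches.

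The start sites of Acp1 and Sh3yl1 lie back to back, and the stretch between them is shown because both genes read outward from it. It spans 56 bases between the RefSeq start sites (GRCm38.p6, chr12:30911613-30911668, written on the plus strand), with capitals marking a GC box on the opposite strand.
Acp1 to Sh3yl1: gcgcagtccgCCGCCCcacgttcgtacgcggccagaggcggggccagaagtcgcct
This stretch is 75% G or C and holds 9 CpG dinucleotides.

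Alkal2 (ENSMUSG00000054204, GRCm38 chromosome 12, 30884322 to 30893854, plus strand, 5 exons) was almost undetected in control cells and present in every knockout library. The control libraries held 2, 1 and 1 Alkal2 counts and the knockout libraries 95, 98 and 52. Every knockout library was far above every control library, and knockout replicate 3 was the lowest of its group. In CPM these were 0.0596, 0.0354 and 0.0377 in control and 3.18, 3.12 and 1.94 in knockout libraries, or 0.0442 ± 0.0133 and 2.75 ± 0.698 CPM (SD, n = 3). A control level of 1 or 2 reads sits under the 3 counts taken as a floor, so the size of the difference is loosely bounded. The summed counts of 4 and 245 gave a ratio of 61.4, with an exact 95% interval of 23.7 to 227 that covers counting error only. The interval is no test, because Alkal2 was chosen for this difference, and that choice favours a large ratio. Left out one at a time, no library brought this ratio outside 55.8 to 76.2, and the highest value was that without control replicate 1. The fitted log2 fold change in edgeR was 5.81 (SE 0.40), a value that depends on how near-zero counts are treated.

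**Figure D1:**
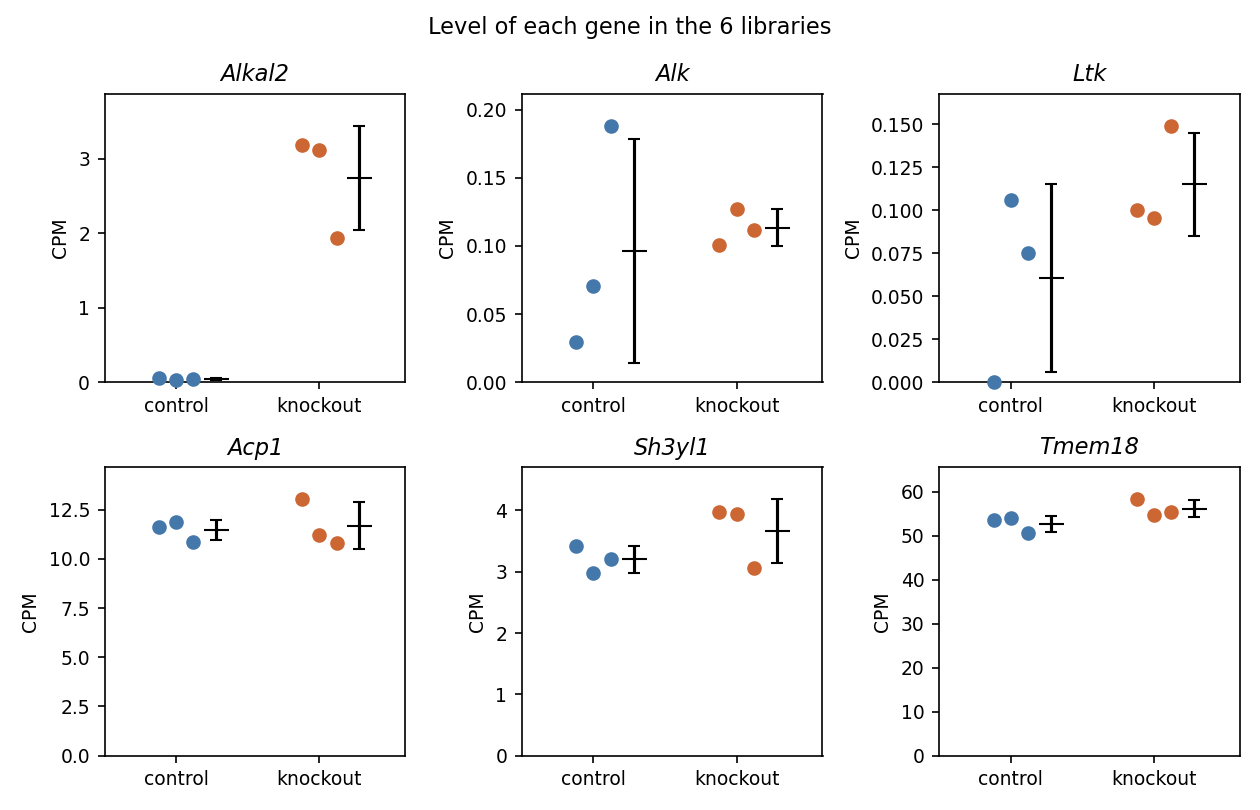
CPM (vertical axis, from 0, scaled separately for each gene) of the 6 genes in 3 control (blue) and 3 knockout (orange) libraries, with the group mean and SD in black. The knockout libraries of Alkal2 lie between 1.94 and 3.18 CPM against at most 0.0596 CPM in control, while the points of Alk, Ltk, Acp1 and Sh3yl1 overlap between groups.

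Alkal2 stood alone under a simple limit on counts. Of 49671 genes, 1, Alkal2, had at most 2 counts in every control library and at least 10 in every knockout library, among 30061 genes with at most 2 counts in every control library. The reverse pattern, at most 2 counts in every knockout library and at least 10 in every control library, was found for 0 genes, among 29940 with at most 2 counts in every knockout library. These limits were chosen after the values were seen. Among the 14946 tested genes Alkal2 had the largest fitted increase. The next largest, also picked after their values were seen, was Ncan, which encodes the brain proteoglycan neurocan, with 4, 10 and 6 counts in control and 26, 52 and 33 in knockout libraries (log2 fold change 2.45). Plxnb3, a plexin gene, followed with 6, 1 and 5 counts in control and 19, 15 and 14 in knockout libraries (1.97), after the unnamed transcript A530076I17Rik (2.24).

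**Figure D2:**
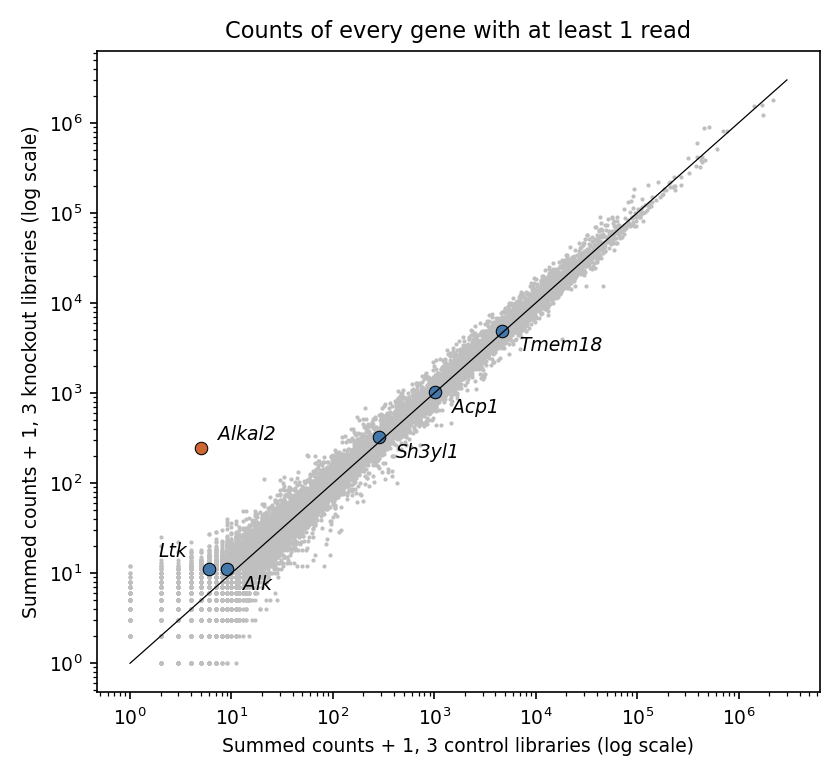
Summed counts plus 1 in the 3 control libraries (horizontal, log scale) and the 3 knockout libraries (vertical, log scale) for every gene with a read (grey), with the 6 genes marked and the line of equal sums. Alkal2 (4 and 245 counts) lies off the band of all genes, and the other marked genes lie inside it.

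Some markers of several cell types differed between the groups as well, and others did not. Of 6 adipocyte markers, 5 were called higher in knockout cells and 0 lower, where 11.9% of all tested genes were called higher and 10.5% lower, and their summed level ran from 7501 to 7738 CPM in control and from 9771 to 11955 CPM in knockout libraries. None of these 6 was at 0 in any group, and Lpl was the one not called (log2 fold change 0.04). Of 6 preadipocyte markers, 0 were called higher and 0 lower. Their sum was 3092 to 3253 CPM in control and 3149 to 3309 CPM in knockout libraries. This sum joins opposite steps. Mean Ly6a was 671 CPM in control and 918 CPM in knockout libraries (edgeR adjusted p = 0.0539). Pdgfra was lower in knockout libraries, at 1247 and 1135 CPM (0.0593), as was Itgb1, at 1111 and 1031 CPM (0.127). The groups did not overlap for these genes, as for 37.9% of all tested genes, and overlapped for Cd34, Dpp4 and Pi16. Of 4 smooth muscle or pericyte markers, 2 were called higher and 0 lower, Rgs5 by 1.61-fold and Notch3 by 1.45-fold. Myh11 (log2 fold change -0.21) and Cnn1 (0.10) were not called. The sum of the 4 was 26.6 to 28.1 CPM in control and 31.3 to 31.9 CPM in knockout libraries. Of 5 endothelial markers, 3 were tested and 1, Kdr, was called higher (1.30-fold). Tek (log2 fold change -0.13) and Vwf (-0.40) had lower means in knockout cells and were not called. The sum of the 5 was 23.5 to 25.6 CPM in control and 26.9 to 28.3 CPM in knockout libraries. Pecam1 and Cdh5 stayed under 1 CPM in every library. The part of these markers in the Alkal2 difference was not tested. In bulk RNA, fewer cells of a type and less RNA per cell cannot be told apart.

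The 3' end of Alkal2 overlaps that of Acp1 on the opposite strand. The gene spans share 529 bases, all within exons, which is 35.1% of the 1509 exonic bases of Alkal2 and 14.6% of those of Acp1. Whether counting used strand is not given in the sources used here, so reads in the shared stretch could belong to either gene if it did not. In the control libraries Acp1 had 391, 335 and 289 counts while Alkal2 had 2, 1 and 1. In the knockout libraries Acp1 had 390, 352 and 290 counts and Alkal2 had 95, 98 and 52. How reads of the shared stretch were assigned was not tested.

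Both receptor genes were at the edge of detection in every library. Alk (GRCm38 chromosome 17, 71868972 to 72604627, minus strand) had 1, 2 and 5 counts in control and 3, 4 and 3 in knockout libraries. The groups overlapped, at 0.0963 ± 0.0823 and 0.113 ± 0.0136 CPM (SD, n = 3; exact 2-sided permutation p = 0.8, where 3 against 3 can give no less than 0.1). The ratio of summed counts was 1.25, with an exact 95% counting interval of 0.446 to 3.66. Without control replicate 1 the knockout mean was the lower one, by 0.0163 CPM.

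Ltk, the other receptor (chromosome 2, 119751320 to 119760431, minus strand), had 0, 3 and 2 counts in control and 3, 3 and 4 in knockout libraries. The 0 in control replicate 1 allows up to 0.0893 CPM (3 counts). Its levels were 0.0605 ± 0.0547 and 0.115 ± 0.0298 CPM and overlapped (SD, n = 3; exact permutation p = 0.3). The ratio of summed counts was 2.01 (0.625 to 7.48). Neither Alk nor Ltk passed the filter on low counts. In an edgeR fit without that filter their log2 fold changes were 0.31 (SE 0.77; adjusted p = 0.852) and 0.96 (SE 0.86; adjusted p = 0.598). A difference in either receptor inside these counting intervals was not detectable at this depth.

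Cell types that are known for ALK, neurons and neural crest derivatives, left few reads. Of 6 neuronal markers, 3 (Th and Stmn2 among them) had 0 counts in every library and all 6 were under 1 CPM, with a summed level of 0.298 to 0.496 CPM in control and 0.502 to 0.672 CPM in knockout libraries. Of 5 Schwann cell markers, Sox10 and Foxd3 had 0 counts in every library, and the list's sum, mostly S100b, was 13.2 to 16.6 and 10.9 to 13.5 CPM. Of 6 haematopoietic markers, 3 (Adgre1 and Cd3e among them) were at 0 and the sum was 1.21 to 1.70 and 1.51 to 2.07 CPM.

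The neighbours of Alkal2 were all detected in both groups, and none was called. Of the 3 tested ones, Acp1, Sh3yl1 and Tmem18, 0 were called by edgeR (adjusted p under 0.05), and 0 of 3 had an unadjusted p under 0.05 or a call by DESeq2 or limma-voom. Over all 14946 tested genes edgeR called 22.4%, so 0 of 3 is no sign of stability.

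Acp1 (chromosome 12, 30893326 to 30911589, minus strand) had 11.6, 11.9 and 10.9 CPM in control and 13.0, 11.2 and 10.8 CPM in knockout libraries. The groups overlapped, with the highest and the lowest value both in knockout libraries. The log2 fold change was 0.03 (SE 0.09, 95% interval -0.17 to 0.23; edgeR adjusted p = 0.862), and its sign turned without control replicate 3 (-0.011) or knockout replicate 1 (-0.057).

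Sh3yl1 (chromosome 12, 30911668 to 30960162, plus strand) had 3.42, 2.98 and 3.20 CPM in control and 3.98, 3.95 and 3.06 CPM in knockout libraries. Knockout replicates 1 and 2 lay above all control libraries and knockout replicate 3 among them. The log2 fold change was 0.20 (SE 0.14, 95% interval -0.11 to 0.50; edgeR adjusted p = 0.358). Knockout replicate 3 was the lowest of its group for Alkal2, Acp1 and Sh3yl1.

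Tmem18 (chromosome 12, 30584426 to 30591215, plus strand), 293 kb from Alkal2 end to start, had 53.5, 54.0 and 50.7 CPM in control and 58.4, 54.7 and 55.4 CPM in knockout libraries. These groups did not overlap, as for 37.9% of all tested genes, but the step was small. The log2 fold change was 0.09 (SE 0.05, 95% interval -0.02 to 0.20; edgeR adjusted p = 0.259). All 3 upper bounds of these intervals are below the fitted 5.81 of Alkal2. Because Alkal2 was chosen for its difference and had the largest fitted increase, this gap was largely set by the choice.

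Per length, the order of the genes by group mean changed in 1 place between the groups. In RPKM, which is CPM divided by the exonic length in kilobases, control levels were 16.2 ± 0.552 for Tmem18, 3.15 ± 0.142 for Acp1, 1.25 ± 0.0878 for Sh3yl1, 0.0293 ± 0.0088 for Alkal2, 0.0168 ± 0.0152 for Ltk and 0.0124 ± 0.0106 for Alk (SD, n = 3). The values of the last 3 overlapped. In knockout libraries Tmem18 was at 17.2 ± 0.597, Acp1 at 3.22 ± 0.326, Alkal2 at 1.82 ± 0.462, Sh3yl1 at 1.43 ± 0.204, Ltk at 0.0320 ± 0.00829 and Alk at 0.0146 ± 0.00175 RPKM. Alkal2 (1.29 to 2.11) and Sh3yl1 (1.20 to 1.56) overlapped there, so their order is not resolved, while Alkal2 stood above both receptors in every knockout library. The lengths of Alkal2 and Acp1 include the 529 exonic bases that they share. Reads there may not have been counted for either gene, which would make these RPKM values too low.

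The wider locus was examined to see whether the difference extended along the chromosome. Of 43 other annotated genes within 1 Mb of Alkal2, 29 were in the table, 18 had at least 1 count and 12 were tested. Of these 12, 3 were called (25%, against 22.4% of all tested genes): Pxdn and Dld rose and Sntg2 fell. The median log2 fold change of the 12 was 0.07, against -0.0017 for all tested genes.

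Sntg2, which encodes a syntrophin scaffold protein and starts at -510.9 kb relative to the Alkal2 start (the side of Tmem18), had 2.35, 3.01 and 2.37 CPM in control and 1.51, 1.59 and 1.31 CPM in knockout libraries. It fell 1.74-fold (-0.80 on the log2 scale, SE 0.17; edgeR adjusted p = 0.00395), the largest step of the window after Alkal2. Dld, the gene of dihydrolipoamide dehydrogenase, a subunit shared by mitochondrial 2-oxoacid dehydrogenases, starts at 467.1 kb on the other side. It had 158, 161 and 164 CPM in control and 235, 213 and 225 CPM in knockout libraries and rose 1.39-fold (edgeR adjusted p = 1.095e-05). Pxdn, which encodes the matrix enzyme peroxidasin, rose 1.19-fold from 113 ± 4.93 to 134 ± 10.1 CPM (SD, n = 3), and was not called without control replicate 1 (adjusted p = 0.0592).

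The tested genes nearest to Alkal2 on either side, Tmem18, Acp1, Sh3yl1, Fam110c and Lamb1, were among the 9 not called. Fam110c, 180 kb beyond the Alkal2 end, was at 19.1 ± 1.18 and 19.7 ± 0.129 CPM, and the laminin gene Lamb1 at 846 ± 51.2 and 786 ± 21.6 CPM. Cbll1, Bcap29, Dus4l and Cog5 had log2 fold changes of 0.14, 0.10, -0.00030 and -0.16, none of them called. The untested Myt1l, Slc26a3, Gpr22, 6030469F06Rik and Gm24613 each had at most 5 counts in any library.

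**Figure D3:**
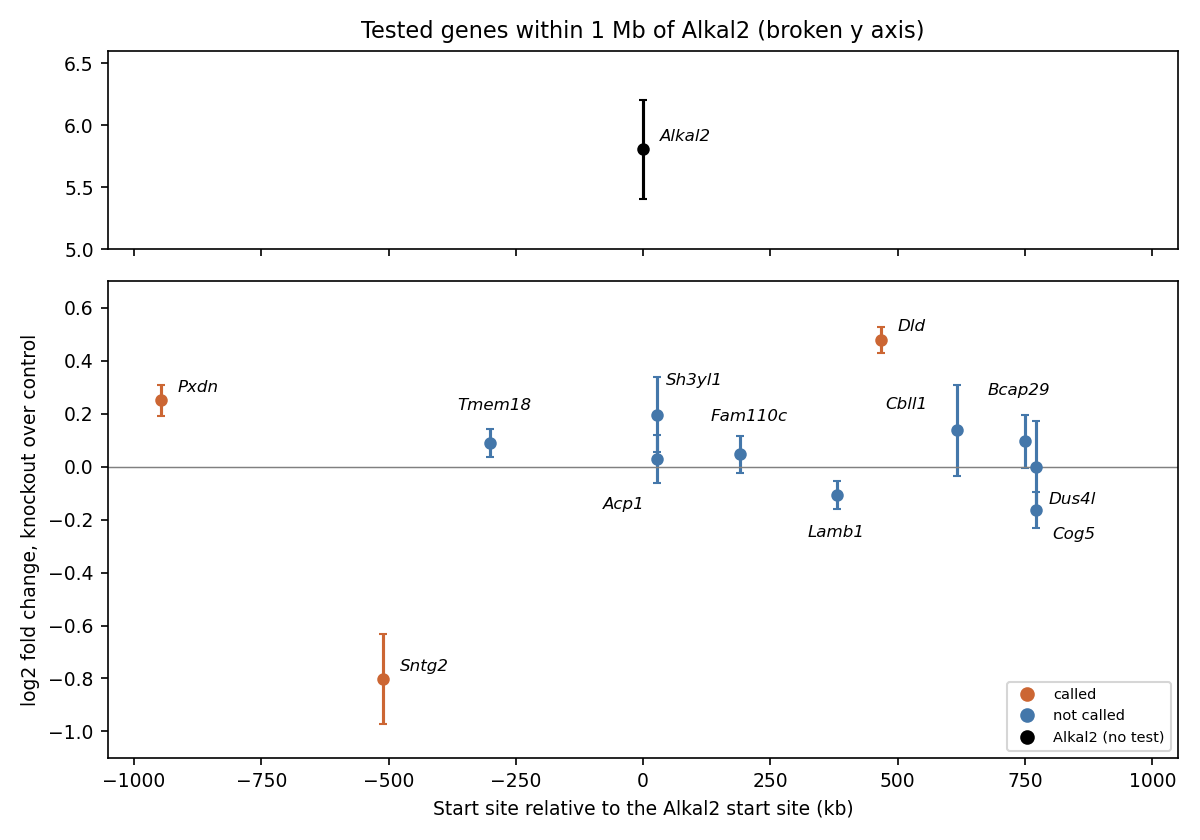
Log2 fold change (vertical, broken axis, bars SE) of the 13 tested genes within 1 Mb of Alkal2 by distance of their start site from that of Alkal2 (horizontal, kb). Sntg2, Pxdn and Dld (orange) were called, and the genes closest to Alkal2 (blue) lie near 0.

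The other genes of ALK signalling were counted in lists. ALKAL1, the second ligand, was scarce: Alkal1 had 11, 2 and 3 counts in control and 12, 8 and 13 in knockout libraries, with overlapping groups (means of 0.170 ± 0.138 and 0.381 ± 0.117 CPM, SD, n = 3; exact permutation p = 0.2). The ratio of its summed counts was 2.07, with a counting interval of 1.11 to 4.03 that leaves out the spread between libraries. The low-count filter removed Alkal1, and an edgeR fit without that filter gave 1.05 on the log2 scale (SE 0.47; adjusted p = 0.153). Of 9 tested ligands and ligand-binding partners besides Alkal2, 3 fell and 0 rose (33.3% called). Of all tested genes 22.4% were called in either direction, and 10.5% of all tested genes were called lower. Pleiotrophin (Ptn), a heparin-binding growth factor, fell from 763 ± 24.5 to 592 ± 12.6 CPM (1.29-fold; edgeR adjusted p = 7.10e-05). The cell surface heparan sulfate proteoglycan genes Gpc1, at 196 ± 8.37 and 145 ± 0.970 CPM, and Sdc1, at 302 ± 7.49 and 244 ± 8.73 CPM, fell 1.35-fold and 1.24-fold (adjusted p = 1.76e-05 and 3.10e-04). The related growth factor gene Mdk, chosen after its values were seen, had 0.953, 0.602 and 0.829 CPM in control and 1.07, 1.24 and 1.38 CPM in knockout libraries and was not called (edgeR adjusted p = 0.0719). Over the 9 genes the median log2 fold change was -0.11.

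Adaptors and other proteins that bind activated ALK changed in few cases. Of 20 tested, 1 rose and 1 fell (10% called, against 22.4% of all genes), with a median log2 fold change of 0.06. The SHC family gene Shc4 fell 1.35-fold, from 15.5 ± 0.550 to 11.4 ± 1.65 CPM (edgeR adjusted p = 0.00569). Sos2, a guanine nucleotide exchange factor for RAS, rose 1.19-fold, from 17.4 ± 1.39 to 20.7 ± 0.220 CPM, and was not called without control replicate 1, knockout replicate 1 or knockout replicate 3 (adjusted p = 0.140, 0.0544 and 0.0907). With 1 library left out the number called ran from 1 to 4, and it was 4 without both control replicate 3 and knockout replicate 2.

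Of 25 tested genes of the downstream cascades, 5 rose and 4 fell (36% called, against 22.4% of all tested genes), with a median log2 fold change of -0.03. Pik3cb, a catalytic subunit of PI3-kinase, rose 1.62-fold, from 16.3 ± 0.225 to 26.3 ± 0.911 CPM (SD, n = 3), with no overlap between the groups (edgeR adjusted p = 6.67e-06). Akt2, the AKT kinase gene of insulin-responsive tissues, rose 1.21-fold, Mtor 1.21-fold and the transcription factor gene Foxo1 1.43-fold. The kinase gene Jak1 fell 1.23-fold, Akt1 1.12-fold and the ERK kinase gene Map2k1 1.11-fold. Several of these calls were lost when 1 library was left out. Foxo1 lost its call when either of control replicates 1 and 2 or of knockout replicates 2 and 3 was left out (adjusted p at most 0.132), and Mtor when control replicate 1 or 2 was (at most 0.0817). Akt1 lost it on leaving out control replicate 1, control replicate 2 or knockout replicate 3 (at most 0.0930). Map2k1 lost it on leaving out any of control replicates 1 and 3 and knockout replicates 1 and 3 (at most 0.0828), and with control replicate 3 and knockout replicate 2 both removed (0.0798). When control replicate 1 was left out, 5 of these cascade genes were called. Over all tested genes that fit called 1222 higher and 923 lower, against 1778 and 1568 with all 6 libraries.

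Transcripts that respond to ERK signalling included 3 that rose and 0 that fell among 17 tested, with a median log2 fold change of 0.17. The share called was 17.6%, against 22.4% of all tested genes called in either direction and 11.9% called higher. Dusp6, a phosphatase of ERK, had 16.1, 17.9 and 17.7 CPM in control and 23.7, 24.0 and 25.5 CPM in knockout libraries and rose 1.41-fold (edgeR adjusted p = 1.83e-04). Dusp4, another ERK-pathway phosphatase gene, rose 1.42-fold from 34.5 ± 1.63 to 48.9 ± 2.08 CPM (adjusted p = 3.65e-05). The ETS factor gene Etv4 rose 1.35-fold. Its call was lost in DESeq2 (adjusted p = 0.0540), on leaving out control replicate 1, control replicate 3 or knockout replicate 3, and with control replicate 3 and knockout replicate 2 both removed (adjusted p at most 0.0790). The feedback inhibitor genes Spry1, Spry2, Spry4, Spred1 and Spred2, chosen after their values were seen, were not called (adjusted p from 0.214 to 0.800). Without knockout replicate 1 the list had 5 called genes.

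Lists built around Acp1 and Sh3yl1 were short and held no gene called by edgeR, which at a share of 22.4% over all tested genes says little about 5 genes each. Of 5 phosphatase genes that act on the insulin receptor, Acp1 included, 0 were called by edgeR, 1 had an unadjusted p under 0.05, and DESeq2 called 1, the receptor phosphatase gene Ptprf (4.10 ± 1.19 and 5.80 ± 1.05 CPM), named after its values were seen. The most abundant members by CPM were Ptpra, at 121 ± 5.23 and 119 ± 6.58 CPM, and Ptpn1, at 50.5 and 47.8 CPM (group means). Of 5 tested genes of phosphoinositide and oxidase partners of SH3YL1, Sh3yl1 included, 0 were called by edgeR, DESeq2 or limma-voom and 0 had an unadjusted p under 0.05. Inppl1, a lipid phosphatase gene, was at 89.7 ± 2.87 and 89.3 ± 9.23 CPM and the oxidase subunit gene Cyba at 48.7 ± 0.711 and 45.7 ± 1.10 CPM.

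The genes whose profile over the 6 libraries came nearest to that of Alkal2 were Lep, Smtnl2, Serpinb6b, Cidea and Depp1. Nearness was the root mean square difference of log2 CPM after each gene's own mean was subtracted, and it favours genes with a large step between the groups, the feature for which Alkal2 was chosen. The leptin gene Lep was nearest, with a difference of 1.42 (Pearson r 0.955 over 6 libraries), and is also 1 of the 6 adipocyte markers. It had 0.804, 0.425 and 0.565 CPM in the control group and 1.91, 2.48 and 2.61 CPM in the knockout group. The smoothelin-like gene Smtnl2 followed at 1.44, at 0.617 ± 0.216 and 2.26 ± 0.153 CPM. Serpinb6b, a serpin gene with close paralogs whose counts are uncertain to that extent, was at 1.52, Cidea, a lipid droplet protein gene, at 1.54 and Depp1, an autophagy regulator gene, at 1.57. Even the nearest gene was thus more than 1 log2 unit away on average, and 0 of these 5 were among the 5 with the highest Pearson r.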

How the data were processed

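Per the submitters' processing notes, STAR 2.5.2b, featureCounts 1.5.1, DESeq2 1.16.0 and build GRCm38 were used, with no role stated. The deposited file holds raw counts per Ensembl gene as the authors made them, in 6 columns, assigned to samples by title. Per the labels, libraries were stranded and depleted of ribosomal RNA. The sources used here do not give the annotation release, the strand setting or the treatment of multiply mapping reads.

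Differences were tested with edgeR 4.0.16 (R 4.3.3; quasi-likelihood, robust, TMM, filterByExpr, group only) over 14946 genes, with a call at p under 0.05 after Benjamini-Hochberg adjustment. SE is the log2 fold change divided by the square root of F, and intervals use the fit's degrees of freedom. The test was tried on simulated data. CPM uses TMM library sizes, and RPKM divides it by the union of exons in GENCODE M21. Total counts of 26621293 to 33484764 per library set the depth. Upstream sequences come from RefSeq (GRCm38.p6), matched by symbol for 6 of 6 genes. Alternatives were other scalings, filters, DESeq2 1.42.0, limma-voom (limma 3.58.1), an adjusted p of 0.01 and leaving out libraries.

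The genes and lists were chosen with earlier results of these data known. Named were the 6 genes, Tcf7l2, Alkal1, window genes with a count, from each list at most 4 called genes in either direction whose mean log2 CPM was 0 or more (without a call, the 2 most abundant), and the 5 profiles nearest to Alkal2. Some genes under this rule are not reported here.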

Additional observations from a re-analysis of the deposited data

How the results depend on the processing

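No paired analysis was possible because no replicate number is common to both groups in the labels. Genes called higher numbered 1778 and lower 1568; at an adjusted p of 0.01 these were 1105 and 829, and with 1 library left out 1222 to 1829 higher and 923 to 1646 lower. The log2 fold change of Alkal2 was 5.49 in limma-voom, and 5.67 to 6.08 with 1 library left out. Acp1, not called in any alternative, ran from -0.057 to 0.079 with 1 library left out, and the Alk difference from -0.016 to 0.063 CPM. Within 500 kb of Alkal2 1 of 6 tested genes was called (16.7%) and within 2000 kb 5 of 17 (29.4%), against 22.4% of all tested genes. An adjusted p of 0.01 left 1 adaptor and 5 cascade genes, and no filter on low counts gave 5 ERK-responsive genes. Leaving out 1 library, adaptors called ran from 1 to 4, cascade genes from 5 to 10, ERK-responsive genes from 2 to 5 and phosphatases from 0 to 1; without control replicate 3 and knockout replicate 2, an alternative chosen after seeing the data, 1913 genes were called lower, and 4 adaptors and 1 phosphatase were called. The phosphatase count was 1 without a filter and by DESeq2. By longest transcript, Acp1 was at 3.78 RPKM and Tmem18 at 18.3 RPKM over all libraries. Ranking by Pearson correlation kept 0 of the 5 genes nearest to Alkal2. Signs of uncalled values near 0 turned: Inppl1 to 0.0051 both without a filter (0.00509) and with CPM of at least 1 in 3 libraries (0.00513), and Dus4l to 0.0025 with DESeq2 size factors, 0.0041 with upper-quartile scaling, 0.0087 without a filter, 0.010 with CPM of at least 1 in 3 libraries and 0.0064 by DESeq2. With 1 library left out, Ptpra ran from -0.059 to 0.021, Inppl1 from -0.088 to 0.059 and Dus4l from -0.14 to 0.17 (-0.16 without control replicate 3 and knockout replicate 2). The causes were not tested. With 0 to 5 reads per library, depth limits what Alk and Ltk can show.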
